A study of Mus musculus with 6 samples.

Results

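Interferon-stimulated genes are transcribed when a cell receives an interferon signal, and 36 of them, listed by name, were followed in mouse liver. Of the 36, 34 were among the 18193 genes with a probe set that carries 1 gene symbol. For Isg15 and Ifi44 no probe set with a single symbol was used here. Each gene was represented by its single-symbol probe set with the highest mean signal over all 6 arrays, and 31 of the 34 were bright enough to be tested.

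The livers came from C57BL/6 mice, an inbred strain, that were 8 weeks old at the start and then ate 1 of 2 diets for 6 weeks. The control group ate chow (Labdiet 5008), and the other group ate a ketogenic diet (F3666), which is very rich in fat and very poor in carbohydrate. All mice fed freely until the livers were taken in the morning, and for neither group do the labels mention a genetic change or a drug. RNA was hybridised to 3 arrays per diet, while the design text speaks of 2 to 3 animals per group, so an array may stand for 1 animal or for several. The p-values therefore reflect spread among arrays, which may be technical.

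Type I interferons signal through the receptor chains Ifnar1 and Ifnar2 to a complex that holds Stat2 and Irf9 and binds the interferon-stimulated response element (ISRE) in promoters. Interferon gamma signals through Ifngr1 and Ifngr2 to STAT dimers, which bind the gamma-activated site (GAS). The products sense viral RNA, degrade or block it, tag proteins with ISG15, load peptides for presentation or attack intracellular parasites, and in liver both hepatocytes and resident macrophages can respond. By their stronger textbook association, 28 members were classed as type I-like and 8 as gamma-like (Irf1, Irf8, Gbp2, Gbp3, Igtp, Irgm1, Iigp1 and Tap1), although many answer to both interferons.

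Promoter sequences were searched for the cores of both elements. RefSeq promoter windows of the GRCm38.p6 assembly, from 250 bases before to 50 after a listed start, were found for 25 of the 36 members in 30 windows. The ISRE core GAAANNGAAA, on either strand, stood in the windows of 13 of the 25 genes (52%), against 3.99% of 27025 genes with a window, and in 3.44% of all 32851 windows. The GAS core TTCNNNGAA, which reads the same on both strands, stood in the windows of 7 of the 25 (28%), against 9.55% of genes and 8.3% of windows. Matches of 1 core can overlap each other or the other core. An ISRE core was found for 9 of 18 type I-like and 4 of 7 gamma-like genes, and a GAS core for 4 of 18 and 3 of 7. A match is a string of letters and not a proven binding site.

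The following stretches are shown because they carry the cores of members from both classes, including Oas1a and Irf8, the only members past the threshold in the expression test with a window in the table. They are printed 5′ to 3′ on the gene's strand, end at or before the base ahead of the start, and have each ISRE or GAS core in capitals.
Oas1a, chr5:120907526-120907575, minus strand, first core at -20 from the start: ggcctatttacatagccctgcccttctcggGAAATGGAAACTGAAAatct
Irf8, chr8:120736157-120736243, plus strand, first core at -171: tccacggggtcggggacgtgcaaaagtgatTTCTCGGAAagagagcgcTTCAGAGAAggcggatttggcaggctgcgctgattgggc
Ifit1, chr19:34640755-34640843, plus strand, first core at -104: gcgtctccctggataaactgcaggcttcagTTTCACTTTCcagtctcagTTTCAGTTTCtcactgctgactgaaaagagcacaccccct
Ifit3, chr19:34583343-34583446, plus strand, first core at -156: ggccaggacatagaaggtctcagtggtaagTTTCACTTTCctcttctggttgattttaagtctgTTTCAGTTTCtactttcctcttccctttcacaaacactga
Gbp2, chr3:142620574-142620643, plus strand, core at -59: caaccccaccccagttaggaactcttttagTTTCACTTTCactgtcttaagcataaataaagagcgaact
Igtp, chr11:58199492-58199555, plus strand, ISRE core at -34: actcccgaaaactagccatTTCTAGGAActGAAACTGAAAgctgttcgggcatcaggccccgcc
Irf1, chr11:53769894-53769962, plus strand, core at -90: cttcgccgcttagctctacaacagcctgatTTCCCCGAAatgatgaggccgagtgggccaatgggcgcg

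In Oas1a the capitals are 2 overlapping ISRE cores, in Ifit1 and Ifit3 they are separate ISRE cores, and in Irf8 they are separate GAS cores. Igtp has a GAS core just upstream of an ISRE core. A GAS core of Oas1a at -98 lies outside the stretch shown.

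On the ketogenic diet 5 of the 31 tested members rose and 0 fell in limma's test with Benjamini-Hochberg adjustment over all 11860 genes tested (0 were lower at an unadjusted p under 0.05 as well). The risen genes were Ifi27l2b, Ifi27l2a, Usp18, Oas1a and Irf8. Among all genes tested 6.57% were called higher and 0.86% lower, and at an unadjusted p under 0.05 in limma 19% were higher and 4.05% lower. Ifi27l2b and Oasl2 passed the filter on dim genes through the ketogenic arrays alone, their chow mean lying under its level, so both had to differ between the diets. Of the 29 tested members that passed it on both diets 4 rose, against 5.83% of the 10965 such genes. The log2 change was above 0 for 29 of the 31 members, and 69.9% of all genes tested were above 0. The members' median was 0.733 (also with the 2 genes of dim chow signal at their bound), and the median over all genes 0.237. Every ketogenic array lay above every chow array for 17 of the 31 members, against 24.1% of all genes, and every ketogenic array lay below for 1, Oasl1, against 5.17%. The 3 members left untested for dim signal were Ifit2, Mx1 and Mx2.

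**Figure D1:**
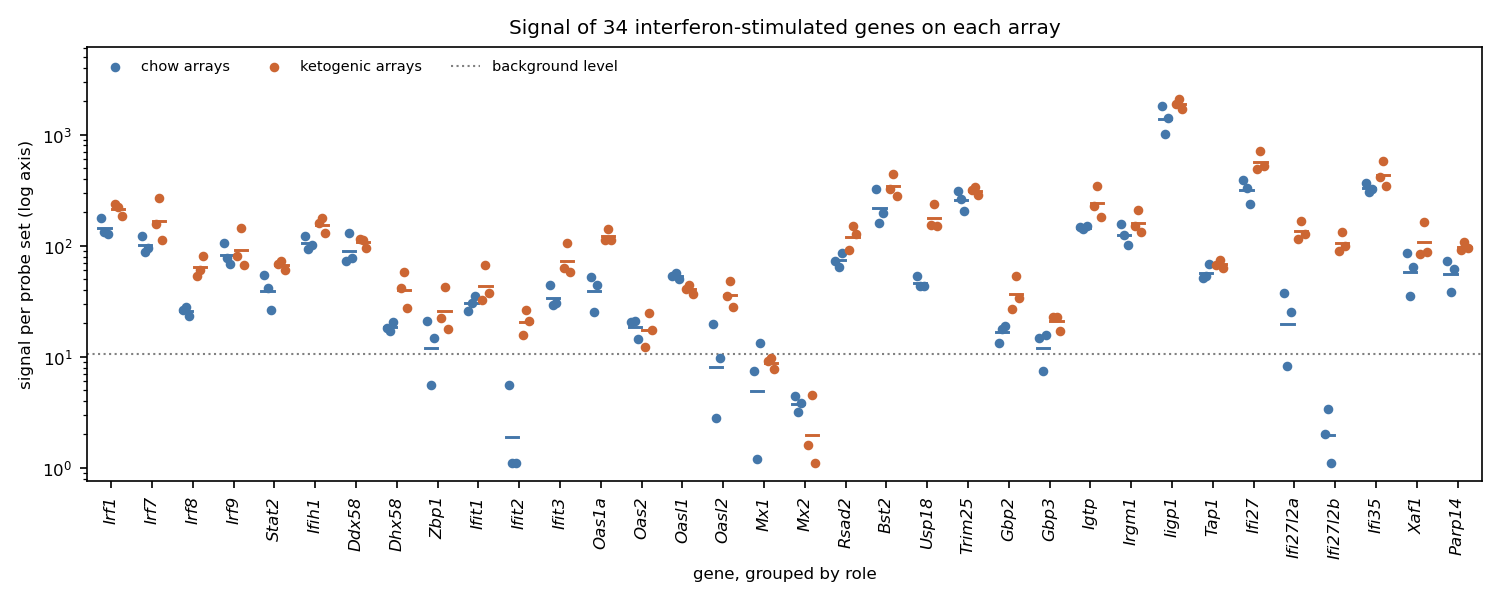
Signal of each of the 34 measured members on the 3 chow arrays (blue) and 3 ketogenic arrays (orange), on a log axis, with genes ordered by role; horizontal bars are geometric means, signals under the floor of 1.1 are drawn at 1.1, and the dotted line is the background of 10.7. The ketogenic points of Ifi27l2b, between 90.1 and 133.1, lie farthest above their chow points, and all 6 points of Mx2 lie under the background.

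The Ifi27 family, small membrane proteins of mitochondria and the nuclear envelope that interferon induces, held the largest changes. The signal of Ifi27l2b, in the arbitrary units of the array, was 2.0, 3.4 and 0.7 for chow replicates 1 to 3, and 90.1, 133.1 and 99.6 for ketogenic replicates 1 to 3, the order kept throughout. All chow values lay under the background of 10.7, the level that bacterial control probe sets reach, and all ketogenic values lay far above it. With signals under the background raised to it, the rise was at least 9.95-fold. The fitted log2 change of 5.76 is no bound, and its limma adjusted p = 0.000242 rests on chow values near the floor in a gene that the ketogenic arrays alone brought into the test. The signal of Ifi27l2a, a neighbouring relative, was 37.6, 8.2 and 25.3 on chow and 115.9, 167.5 and 127.7 on ketogenic arrays. The diets did not overlap, and Ifi27l2a rose by 2.77 ± 0.50 (log2, SE; limma adjusted p = 0.0129). Ifi27 itself read 393.9, 334.5 and 238.3 on chow and 494.6, 716.9 and 524.9 on ketogenic arrays. Its diets did not overlap either, but its log2 change of 0.86 ± 0.28 (SE) was not past the threshold in limma (adjusted p = 0.106). The name of the Ifi27l2b probe set marks it as one that can bind several transcripts, so signal from its near relatives cannot be told apart from its own. The call of Ifi27l2a was lost without ketogenic array 3 (limma adjusted p = 0.0523) and with no filter on dim genes (0.0887). Its lowest adjusted p over 19 alternatives was 1.5e-06.

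In the ISG15 system, Usp18 removes ISG15 from proteins and restrains signalling at the type I receptor, and Trim25 is a ubiquitin ligase that activates an RNA sensor. The signal of Usp18 was 53.0, 43.7 and 43.6 on chow and 154.4, 238.0 and 149.7 on ketogenic arrays, so that the lowest ketogenic array was far above the highest chow array. Usp18 rose from 46.77 ± 5.40 to 180.7 ± 49.7 (SD, n = 3), a log2 change of 1.92 ± 0.27 (SE) with a limma adjusted p = 0.00496. It was past the threshold in each of 19 alternatives. Trim25 read 313.0, 262.5 and 206.0 on chow and 316.9, 336.3 and 288.1 on ketogenic arrays, which overlapped, and its log2 change was 0.29 ± 0.25 (SE; limma adjusted p = 0.524).

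Of 8 tested antiviral effectors 1 rose, against 6.57% of all genes. It was Oas1a, an oligoadenylate synthetase that turns on RNA degradation when it meets double-stranded RNA. Its signal was 52.6, 25.1 and 44.6 on chow and 113.0, 142.8 and 113.1 on ketogenic arrays. The diets were well apart, and the log2 change was 1.65 ± 0.31 (SE; limma adjusted p = 0.0152). Of 19 alternatives only the one with no filter on dim genes lost this call (adjusted p = 0.0813, from 0.000118 in the others). The other members of the OAS family differed among themselves. Oasl2 read 19.6, 2.8 and 9.7 on chow and 35.4, 47.7 and 28.1 on ketogenic arrays, which did not overlap, with a fitted log2 change of 2.16 ± 0.61 (SE), a limma adjusted p = 0.0674 and, with chow signals under the background raised to it, a ketogenic signal at least 2.72-fold higher than that of chow. Oas2 had a log2 change of -0.08 and overlapping diets. Oasl1 went the other way: its signal was 53.8, 56.5 and 50.3 on chow and 40.5, 44.5 and 36.5 on ketogenic arrays. These values did not overlap, with a log2 change of -0.41 ± 0.22 (SE; limma adjusted p = 0.314), and quantile normalization gave -0.716 with an adjusted p = 0.0419, the lowest of its alternatives, which ranged up to 0.87.

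The IFIT proteins bind foreign RNA. Ifit3, whose promoter stretch is shown above, read 44.1, 29.0 and 30.7 on chow and 63.6, 105.4 and 57.9 on ketogenic arrays, without overlap, a log2 change of 1.10 ± 0.31 (SE; limma adjusted p = 0.0653). Ifit1, with its pair of ISRE cores, read 26.0, 30.4 and 35.5 on chow and 32.3, 67.0 and 37.5 on ketogenic arrays. The diets overlapped, and its log2 change was 0.51 ± 0.32 (SE; limma adjusted p = 0.369). Ifit2 was too dim to be tested: it read 5.6, 1.0 and 1.1 on chow, all under the background, and 15.8, 26.5 and 21.1 on ketogenic arrays, at least 1.94-fold higher. Rsad2, the antiviral enzyme viperin, had a log2 change of 0.70 (limma adjusted p = 0.159), and its 2 other probe sets had changes of 1.24 and 0.92. Bst2, tetherin, which holds budding virus at the cell surface, had a log2 change of 0.66 with overlapping diets (limma adjusted p = 0.258). The dynamin-like Mx1 and Mx2 had mean log2 signals under the background on both diets, so no fold is given for them.

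Of 5 transcription factors 1 rose, against 6.57% of all genes. It was Irf8, which directs the development of macrophages and dendritic cells and answers to interferon gamma. Its signal was 26.4, 28 and 23.2 on chow and 53.0, 60.5 and 80.9 on ketogenic arrays. All ketogenic arrays stood above all chow arrays, and the log2 change was 1.31 ± 0.25 (SE; limma adjusted p = 0.0159). A second probe set of Irf8 read 15.7, 2.4 and 19.8 on chow and 65.9, 73.6 and 80.5 on ketogenic arrays, also without overlap. In a limma fit of 22519 probe sets in place of genes, of which 4.08% were called higher, this second probe set had an adjusted p = 0.0471. The call of Irf8 was lost when chow array 3 was left out (limma adjusted p = 0.0507), when arrays were scaled to 1 trimmed mean (0.0545), after quantile normalization (0.069) and with no filter on dim genes (0.0688). Over 19 alternatives its adjusted p started at 0.00275. Irf7, the amplifier of type I interferon production, read 122.1, 87.2 and 96.2 on chow and 155.9, 268.3 and 112.4 on ketogenic arrays. The diets overlapped, and its log2 change was 0.73 ± 0.34 (SE; limma adjusted p = 0.239). Irf1, whose promoter stretch carries a GAS core, had a log2 change of 0.57 without overlap of the diets, Stat2 one of 0.78 without overlap, and Irf9 one of 0.15 with overlap (limma adjusted p = 0.213, 0.16 and 0.815).

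None of 4 sensors of foreign nucleic acid passed the threshold in limma, and 1 was higher at an unadjusted p under 0.05, a share near the 19% of all genes. The nearest was Dhx58, an RNA helicase that modulates the other RNA sensors, which read 18.2, 16.9 and 20.5 on chow and 41.7, 57.5 and 27.4 on ketogenic arrays. Its diets did not overlap on this probe set, with a log2 change of 1.13 ± 0.30 (SE; limma adjusted p = 0.0575), while another probe set of Dhx58 had a change of -0.95 and overlapped. The sensor with the highest signal, Ifih1, a helicase that recognises long double-stranded RNA, read 122.8, 94.4 and 102.3 on chow and 158.7, 179.0 and 130.5 on ketogenic arrays. These did not overlap, and its log2 change was 0.55 ± 0.24 (SE; limma adjusted p = 0.22). Ddx58, a helicase that recognises RNA ends, had a change of 0.26 and Zbp1, a sensor of unusual nucleic acid helices, one of 1.09, both with overlapping diets (limma adjusted p = 0.624 and 0.235).

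None of the 5 interferon-induced GTPases nor the peptide transporter subunit Tap1 passed the threshold in limma, and 3 of these 6 were higher at an unadjusted p under 0.05, against 19% of all genes. Gbp2, a guanylate-binding protein that attacks vacuoles of pathogens, read 13.4, 17.9 and 19.0 on chow and 27.1, 53.5 and 33.9 on ketogenic arrays. Its diets did not overlap, and its log2 change was 1.14 ± 0.31 (SE; limma adjusted p = 0.0573). Its relative Gbp3 and the immunity-related GTPase Igtp also did not overlap, with log2 changes of 0.80 and 0.73 (limma adjusted p = 0.183 and 0.155). Iigp1, which had the highest signal of this group, read 1814.8, 1011.9 and 1416.0 on chow and 1878.7, 2111.6 and 1693.6 on ketogenic arrays. The highest chow array exceeded the lowest ketogenic array, and its log2 change was 0.46 ± 0.28 (SE; limma adjusted p = 0.359). Irgm1 and Tap1 had changes of 0.36 and 0.26 with overlap.

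Of the remaining members none passed the threshold in limma, and 2 of 3 were higher at an unadjusted p under 0.05, against 19% of all genes. Ifi35, with the highest signal of them, read 370.1, 304.7 and 325.6 on chow and 418.6, 577.5 and 344.3 on ketogenic arrays, which overlapped, with a log2 change of 0.39 ± 0.26 (SE; limma adjusted p = 0.411). Xaf1, a pro-apoptotic factor, had a change of 0.88 with overlap, and Parp14, an ADP-ribosyltransferase, one of 0.82 without overlap (limma adjusted p = 0.217 and 0.126).

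**Figure D2:**
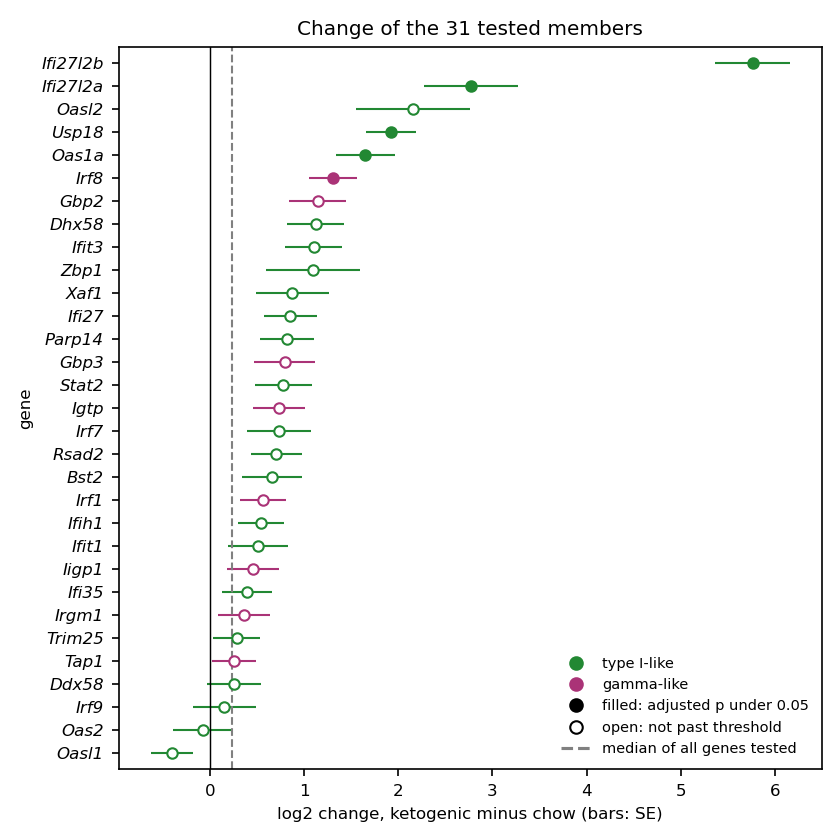
Log2 change, ketogenic minus chow, of the 31 tested members with its SE, type I-like in green and gamma-like in purple; filled points passed the threshold of 0.05 and the dashed line is the median of all genes, 0.237. Points run from -0.41 for Oasl1 to 5.76 for Ifi27l2b, and 5 are filled.

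In the order of the changes, each member from Oas2 up to Irf8 differed from the next by less than the SE of either. Of the 21 further probe sets of 14 members, 19 had the sign of the representative one. Some of the 21, among them those of Tap1, lay under the level of the filter on dim genes, where a sign means little. Of all genes tested 69.9% had a change above 0.

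Type I-like and gamma-like members were then set side by side. Of 23 tested type I-like members 4 rose and the median log2 change was 0.782, with a range from -0.41 to 5.76. Of 8 gamma-like members 1 rose and the median was 0.649, with a range from 0.26 to 1.31. Among all genes tested 6.57% rose, and the single gamma-like call is too few to set against that share. The medians differed by 0.132. On single arrays, the difference between class medians of values centred per gene had an SD of 0.133 between arrays of 1 diet. That is a spread of single arrays, while the 0.132 rests on all 6. With the mean of all probe sets of a gene the difference of 0.132 became -0.00729. The mean changes were 1.07 and 0.703, and the former was 0.86 without Ifi27l2b. Every ketogenic array lay above every chow array for 12 of 23 and 5 of 8, against 24.1% of all genes. Both members under 0 were type I-like, the larger class, and so were the 5 changes above 1.31. Among these 5, Ifi27l2b and Oasl2 passed the filter on dim genes through the ketogenic arrays alone, so both had to differ. Both are also among the 12 without overlap. The mean of 0.86 without Ifi27l2b still includes Oasl2. Members are not replicates of a class, so no test was made.

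**Figure D3:**
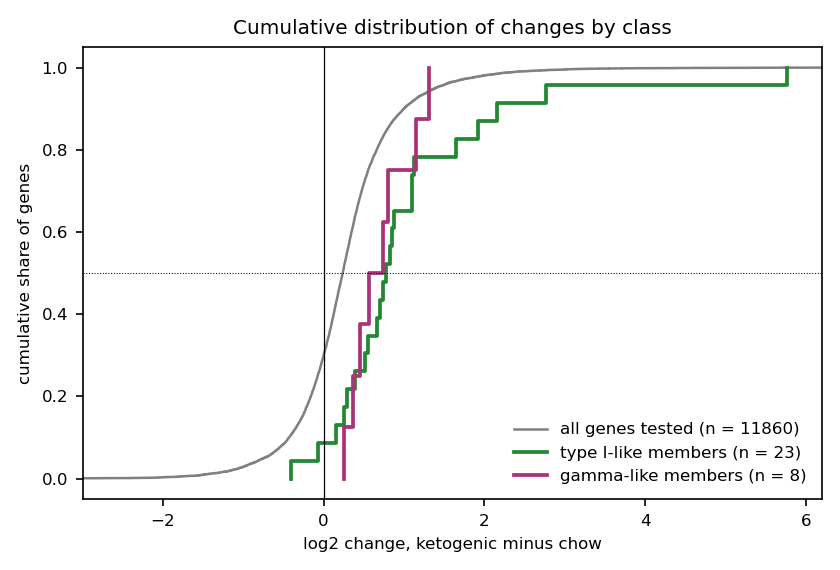
Cumulative share of genes by log2 change for all 11860 genes tested (grey), 23 type I-like (green) and 8 gamma-like members (purple); the dotted line marks the median. The class medians are 0.782 and 0.649 and that of all genes is 0.237. With 8 members the purple curve lies on the dotted line from 0.57 to 0.73. Of the class curves the green one extends beyond 1.31, and the axis leaves out the far tails of all genes.

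Array by array, the mean log2 signal of each class was taken relative to all genes tested and centred on its own mean. For type I-like members it was -0.29, -0.617 and -0.302 on chow, and 0.225, 0.585 and 0.397 on the ketogenic diet. For gamma-like members it was -0.306, -0.33 and -0.015 on chow, and 0.109, 0.249 and 0.293 on the ketogenic diet. In both classes the ketogenic arrays stood above the chow arrays, with gamma-like members on chow array 3 close to ketogenic array 1. The difference between the centred means, type I-like minus gamma-like, was 0.0162, -0.286 and -0.286 on chow, and 0.116, 0.336 and 0.104 on the ketogenic diet, without overlap. Without Ifi27l2b, a comparison added after the values were seen, it was 0.136, -0.227 and -0.145, and 0.0138, 0.232 and -0.0089, and the diets overlapped. Both versions keep Oasl2, which passed the filter on dim genes through the ketogenic arrays alone. Ketogenic array 2 was the highest array for 26 of the 31 members, against 44.6% of all genes, and for 17 with quantile normalization. That array also had the highest overall level, with a 2% trimmed mean signal of 60.7 against 39.6 to 54.6 on the other arrays.

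Markers of macrophages and of some other cell types were also higher on the ketogenic diet. Of 12 markers of Kupffer cells, the resident macrophages, and other macrophages 10 rose, against 6.57% of all genes. The list's summed signal ran from 1369 to 1694 on chow and from 4625 to 7086 on ketogenic arrays. The highest value was on ketogenic array 2, the array with the highest overall level, and the sums were not taken relative to all genes. Adgre1, which defines macrophages, had a log2 change of 0.47 (limma adjusted p = 0.354), while Cd68 and Clec4f rose by 2.71 and 1.73 (log2; limma adjusted p = 0.000784 and 0.016). In bulk liver more cells of a type and more RNA per cell cannot be told apart, and the part of macrophages in the members' changes was not tested. The summed signal of 4 measured markers of conventional dendritic cells was 27.2 to 65.2 on chow and 74.0 to 101.3 on ketogenic arrays (means 41.0 and 87.8). Of 2 tested 1, the integrin Itgax, rose by 2.10 (log2; limma adjusted p = 0.00685), with means of 11.7 and 51.2. Zbtb46 had a log2 change of 0.76 with overlap (limma adjusted p = 0.394). Flt3, with means of 6.47 and 7.90, and Xcr1, with 6.17 and 2.37, were untested and under the background on both diets. For plasmacytoid dendritic cells, strong producers of type I interferon, the sum of 4 markers was 61.5 to 89.0 and 111.2 to 128.2 (means 71.8 and 120.9). Of 2 tested 1 rose, Tcf4, with means of 44.4 and 88.7 (limma adjusted p = 0.0444). Spib had a log2 change of -0.29 with overlap (limma adjusted p = 0.596), and Ccr9 was untested, its mean log2 signal under the background on both diets. The defining Siglech lay at 10.5 ± 6.50 on chow and 10.6 ± 3.94 on ketogenic arrays (SD, n = 3), and its mean log2 signal was under the background on both. The sum of 6 T and NK cell markers was 51.9 to 63.1 and 70.3 to 96.9, with 0 of 1 tested past the threshold and the T cell gene Cd3e at 6.03 ± 2.32 and 13.4 ± 10.5 (SD, n = 3). The sum of 3 B cell markers was 28.6 to 47.7 and 39.4 to 72.2, which overlapped, and 0 of 3 passed. That of 3 neutrophil markers was 9.2 to 18.1 and 52.8 to 65.7. Both tested, S100a8 and S100a9, were called higher. The third, Cxcr2, had means of 4.33 and 3.93 with overlap, and was untested and under the background on both diets. Like the macrophage gene Marco and the stellate gene Col1a1, S100a8 and S100a9 passed the filter through the ketogenic arrays alone, so these 4 had to differ. Of the 35 markers of all cell types that passed it on both diets 14 rose, against 5.83% of all 10965 such genes. Among other liver cells, 4 of 4 tested stellate cell markers rose, with a sum over 5 of 209 to 339.2 and 1143 to 1841. None of 5 markers of sinusoidal endothelium passed (sums 403.4 to 687 and 743.2 to 1013; 3 were higher at an unadjusted p under 0.05 in limma), nor of 3 tested cholangiocyte markers (sums over 4 of 46.8 to 70.8 and 86.5 to 104.7; 0 at an unadjusted p under 0.05). The summed signal of 5 hepatocyte markers was lower on the ketogenic diet without overlap, at 34459 to 36459 on chow and 24399 to 28394. Of the 5, the urea cycle enzyme Cps1 and the tyrosine aminotransferase Tat fell. The plasma protein genes Ttr and Apoa1 were lower on every ketogenic array, with log2 changes of -0.16 and -0.18 (limma adjusted p = 0.694 and 0.669), and Alb, serum albumin, read 8023 and 7948 with overlap.

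**Figure D4:**
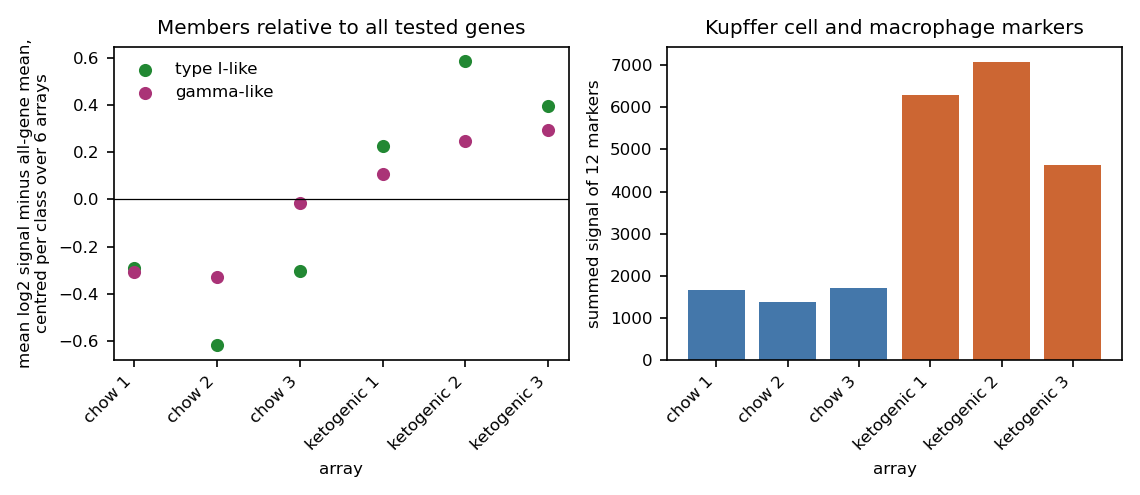
Left, the mean log2 signal of type I-like (green) and gamma-like (purple) members on each array, relative to all genes tested and centred per class over the 6 arrays; right, the summed signal of 12 Kupffer cell and macrophage markers on chow (blue) and ketogenic (orange) arrays. In both panels all ketogenic arrays lie above all chow arrays, and ketogenic array 2 is the highest for type I-like members (0.585) and for the markers (7086). Gamma-like members are highest on ketogenic array 3 (0.293), where the marker sum is the lowest of the ketogenic arrays (4625). The marker sums are not relative to all genes, and ketogenic array 2 had the highest overall level.

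Other array measures also separated the diets: hybridization controls, added in fixed amount, had a mean signal of 1100 to 1154 on chow and 818.9 to 909.1 on ketogenic arrays, and the ratio of 3' to 5' actin signal was 2.00 to 2.20 and 1.49 to 1.63. Their part in the members' changes was not tested. Scaling moved the median of all genes, and the members' median moved with it. In the order as deposited, scaled to 1 array median, scaled to 1 trimmed mean, quantile normalized and scaled to the hybridization controls, the median of all genes was 0.237, 0.125, 0.0225, -0.00607 and 0.6, and that of the members 0.733, 0.622, 0.519, 0.478 and 1.1. The number of members with a change above 0 was 29, 29, 28, 26 and 30. The share of all genes above 0, 69.9% as deposited, was not taken for the other scalings. The number of members that rose was 5, 7, 5, 4 and 22, against 6.57%, 7.88%, 5.78%, 4.96% and 31.4% of all genes. Of the called genes as deposited, 88.4% were higher, and 77.1%, 65.4%, 64.1% and 97.5% with these other scalings.

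Genes upstream of the members and further interferon-responsive genes were taken from a list of 86, of which 73 had a single-symbol probe set here and 61 were tested. Of these 11 rose and 0 fell in limma, against 6.57% and 0.86% of all genes. At an unadjusted p under 0.05 in limma 2 were lower, against 4.05% of all genes. Their median log2 change was 0.533, against 0.237 over all genes. Of 5 interferon genes 4 were too dim to be tested. The only one tested, Ifna2, read 66.5, 79.0 and 71.6 on chow and 51.3, 56.7 and 20.4 on ketogenic arrays, which were all lower, with a log2 change of -0.89 ± 0.38 (SE; limma adjusted p = 0.206). Ifng, interferon gamma, read between 0.4 and 3.7 on all 6 arrays, under the background, and Ifnb1, interferon beta, read 11.5, 15.9 and 13.7 on chow and 3.5, 4.2 and 0.8 on ketogenic arrays, too dim to be tested.

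Of 8 tested receptor chains and kinases 2 rose, against 6.57% of all genes. Ifngr2, the signalling chain of the interferon gamma receptor, read 27.7, 45.6 and 15.5 on chow and 94.7, 127.1 and 81.5 on ketogenic arrays. Its diets were apart, with a log2 change of 1.88 ± 0.39 (SE; limma adjusted p = 0.0217). Leaving out chow array 1, ketogenic array 2 or ketogenic array 3, quantile normalization and no filter each ended this call (adjusted p up to 0.113). Il10rb, a chain shared by the receptors of interferon lambda and interleukin 10, read 56.5, 40.8 and 24.5 on chow and 96.3, 122.7 and 117.6 on ketogenic arrays. It rose by 1.54 ± 0.33 (log2, SE; limma adjusted p = 0.0236), a call that ended without chow array 3, ketogenic array 2 or ketogenic array 3 and with no filter (adjusted p up to 0.107). The partner chains Ifngr1, Ifnar1 and Ifnar2 had log2 changes of 0.44, 0.40 and 0.11, none past the threshold (limma adjusted p = 0.295, 0.34 and 0.824).

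Of 34 further responsive genes 9 rose, against 6.57% of all genes. Cxcl10, a chemokine that attracts activated T cells, rose at least 5.06-fold from a level under the background on chow, from 2.2, 10.1 and 3.2 to 49.2, 71.5 and 44.5 (limma adjusted p = 0.00496). Cxcl10 and Oas3 passed the filter on dim genes through the ketogenic arrays alone, so both had to differ. Of the 56 genes of the list that passed it on both diets 9 rose, against 5.83% of all 10965 such genes. Gbp6, a guanylate-binding protein, read 28.7, 21.9 and 45.5 on chow and 128.0, 132.0 and 137.0 on ketogenic arrays, and rose by 2.11 (log2; limma adjusted p = 0.00529). Samd9l and Lgals3bp rose by 1.91 and 1.88 (log2; limma adjusted p = 0.00346 and 0.00406), and both, like Gbp6, were past the threshold in each of 19 alternatives. Oas3, the largest of the oligoadenylate synthetases, rose at least 2.17-fold (limma adjusted p = 0.0327). Its call ended in 9 of 18 alternatives, among them without any 1 array except chow array 3 (adjusted p up to 0.142). Ifi30, a lysosomal thiol reductase of antigen processing, and Ifitm1, a membrane protein that hinders viral entry, rose by 1.29 and 1.28 (log2; limma adjusted p = 0.0191 and 0.0193). The call of Ifi30 ended without chow array 2, ketogenic array 1 or ketogenic array 2 and with no filter (adjusted p up to 0.0772). That of Ifitm1 ended without chow array 3, ketogenic array 2 or ketogenic array 3, with quantile normalization and with no filter (up to 0.0771). Trim30a and Psmb10 rose by 1.05 and 0.98 (log2; limma adjusted p = 0.0477 and 0.0484). The call of Trim30a ended in 10 of 18 alternatives, among them without any 1 array, and that of Psmb10 in 10 of 19, among them without any 1 array except chow array 1 (adjusted p up to 0.15 and 0.162). In the remaining groups none passed the threshold in limma: at an unadjusted p under 0.05, 0 of 5 transcription factors, 1 of 4 brakes and 3 of 9 sensors and adaptors were higher, against 19% of all genes. Without chow array 2 or any 1 ketogenic array between 4 and 7 of the 61 rose.

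**Figure D5:**
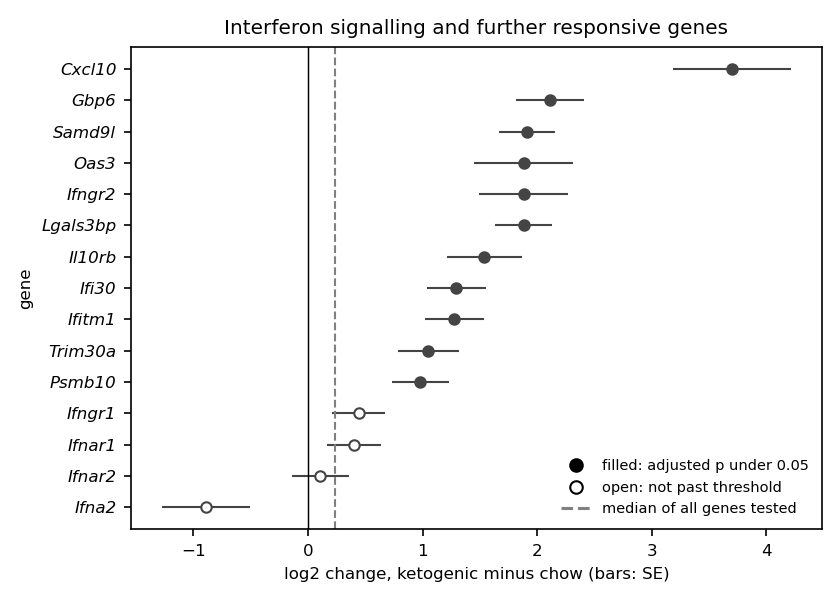
Log2 change, ketogenic minus chow, with its SE for the 11 risen genes of the list of 86 and for Ifngr1, Ifnar1, Ifnar2 and Ifna2; filled points passed the threshold of 0.05 and the dashed line is the median of all genes, 0.237. Cxcl10 lies highest and Ifna2, at -0.89, is the only point under 0.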

How the data were processed

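Liver RNA was labelled with biotin and hybridised to 1-colour Affymetrix arrays, 3 per diet. The authors deposited 1 linear intensity for each probe set; the submitters' processing notes name GCOS and MAS5. Their versions, settings and scaling target were not stated in those notes or labels. Of 45101 probe sets 64 were controls. Replicates were numbered in order of deposition and pair nothing. Gene names came from the platform annotation: 34958 probe sets had 1 symbol, 932 several and 9211 none.

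Signals were raised to a floor of 1.1 (10th percentile), log2-transformed and otherwise kept as deposited. Genes with a mean log2 signal of at least 3.35 were tested with limma 3.58.1 (lmFit, eBayes; R 4.3.3) in a two-sided test, with Benjamini-Hochberg adjustment over 11860 genes and a threshold of 0.05, after the fit had been tested on simulated data. The background of 10.7 averages, in log2, each array's 95th percentile over 27 bacterial control probe sets. Where 1 diet's mean lay under it, signals were raised to it and "at least" gives whichever was lower, the ratio of means or that of geometric means. Bounds ignore the spread between arrays. The precision is limited by the number of arrays.

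The members, classes, marker lists and the list of 86 were chosen with earlier results of these data known. Described in full were members past the threshold, Ifi27l2a, Ifi27l2b and Irf8, the member with the highest signal in a role with none, and from the other list up to 12 called genes with the largest change, the receptor chains and the brightest interferon; others were added where a sentence needed them, after their values were seen. Alternatives changed the scaling, floor, filter, choice of probe set, variance prior or array weights, or left out 1 array while keeping probe sets and genes.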

Additional observations from a re-analysis of the deposited data

How the results depend on the processing

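No paired analysis was possible because the labels give no replicate numbers shared by the diets. Of the 5 members called, Usp18 kept its call in all 19 alternatives. Ifi27l2b, brought into the test by the ketogenic arrays alone, kept its call in the 17 alternatives in which it was tested. Of the 26 uncalled members 19 passed in at least 1, among them Oasl1, which passed as lower. The same count was not taken over all genes, of which 31.4% rose with scaling to the hybridization controls. Instead of 5 members, 22 rose with scaling to the hybridization controls, 12 with log2 of signal plus 16 and 8 with the filter at the 60th percentile. With a trended robust prior 11 rose, with array quality weights (whose estimation stopped before converging) 19 and with no filter on dim genes 2. Of all genes 779 rose as deposited and, in the same order, 3720, 1351, 1025, 1214, 2912 and 226. With no filter 5 of 12 macrophage markers rose in place of 10, and 9 to 10 did without 1 array. For members, leaving out 1 array gave 4 to 6. With quantile normalization 1 member, Oasl1, fell. The members' median was 1.1 in place of 0.733 with hybridization control scaling (0.543 to 0.942 without 1 array), and its distance from the median of all genes was 0.497, or 0.315 to 0.609 without 1 array, the lowest without chow array 2. The class difference of 0.132 became -0.00729 with the mean of probe sets and ran from 0.0527 to 0.286 without 1 array.

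Of the list of 86, 11 rose as deposited, 36 with hybridization control scaling, 6 after quantile normalization, 20 with log2 of signal plus 16, 3 with no filter, 18 with the trended robust prior and 26 (with 1 fall) with array weights, and 4 to 10 without 1 array (7, 7, 4 and 5 without chow array 2 and ketogenic arrays 1, 2 and 3). Of all genes 779 rose and 102 fell. With hybridization control scaling 3720 rose. With log2 of signal plus 16 these were 1351 and 270, with no filter 226 and 41, with the trended robust prior 1214 and 232, and with array weights 2912 and 552. Falls numbered 278, 362 and 329 with scaling to 1 median, to 1 trimmed mean and by quantiles, and 187 with the filter at the 60th percentile. Without 1 array 425 to 826 rose (497 without chow array 3 and 454, 425 and 463 without ketogenic arrays 1, 2 and 3) and 56 to 139 fell (65 without chow array 1 or 3 and 56 without ketogenic array 3).

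Among the members and described genes of the list of 86, the sign of the change turned for genes that were not called as deposited: Irf9 (-0.0599 scaled to 1 trimmed mean, -0.149 by quantiles, -0.17 without ketogenic array 2, up to 0.385 without ketogenic array 3), Ddx58 and Tap1 (-0.0385 and -0.0554 with quantile normalization), Oas2 (0.287 with hybridization control scaling, -0.331 to 0.18 without 1 array) and Ifnar2 (-0.00311 scaled to 1 median, -0.106 to 1 trimmed mean, -0.0843 by quantiles, -0.0057 to 0.236 without 1 array). The cause of these differences was not tested. With 3 arrays per diet the smallest log2 change called among all genes was 0.882, which limits what could be called among members near their median.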

Other observations

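Some genes of the list of 86 that serve peptide processing for MHC class I, chosen here after their values were seen, had the following values. Psmb10, an immunoproteasome subunit, rose from 125.4 ± 26.9 to 244.1 ± 16.9 (SD, n = 3; limma adjusted p = 0.0484), while its partners Psmb8 and Psmb9 had log2 changes of 0.85 and 0.31 (limma adjusted p = 0.0685 and 0.49). Psme1, a proteasome activator subunit, had a change of 0.71 (limma adjusted p = 0.207), and the member Tap1 one of 0.26 (0.549). Tapbp, the chaperone tapasin, had a change of 0.70 and the transporter subunit Tap2 one of 0.96, both without overlap of the diets (limma adjusted p = 0.112 and 0.156). B2m, the light chain of class I molecules read 4787 ± 262 on chow and 5280 ± 319 on ketogenic arrays (SD, n = 3; limma adjusted p = 0.735).

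The call of Psmb10 was lost under 10 of 19 alternatives, among them without chow array 2 or 3 or any 1 ketogenic array (adjusted p up to 0.162).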
